A study of Homo sapiens with 38 samples.

Results

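The genes described here are 10 transcripts of the cytoskeleton, the matrix and the YAP response in human embryonic stem cells that leave the naive state: *ACTC1*, *NPPB*, *ANKRD1*, *ANXA1*, *ANXA3*, *TAGLN*, *ACTA2*, *MYL9*, *TPM1* and *THBS1*. They were taken by symbol from a count table of 57133 genes, and all 10 were among the 16674 genes with enough counts to be tested. The first 4 (*ACTC1*, *NPPB*, *ANKRD1* and *ANXA1*) were chosen by their measured difference between N2B27 with a tankyrase inhibitor and N2B27 alone, or between mTeSR and N2B27, and the other 6 were added as contractile and related genes. The values of those contrasts, for which the genes were selected, are given as a description, with no test. Other comparisons share libraries with them (N2B27 and mTeSR at days 4, 6 and 8, and XAV), in which a high or low value of a seed gene was part of the choice. No p is given there for the 4 seed genes, and where a count of calls rests on such libraries, the count among the 6 added genes, not that among all 10, is set beside the share of all genes. The 6 added genes too were chosen with earlier results of these data known. Their counts are therefore a description and no independent support. All cells were of 1 line, Shef6, a human embryonic stem cell line in the naive state, and every sample is labelled as adapted to serum, so all groups descend from cells kept on a serum coating. Naive cells (day 0) were kept in PXGL, a medium with the MEK inhibitor PD0325901, the tankyrase inhibitor XAV939, the PKC inhibitor Gö6983 and the cytokine LIF, so the naive reference cells also carried the tankyrase inhibitor. The methods also add a ROCK inhibitor to the naive medium after passaging, and the names of the naive libraries read PXGLY. Whether it was present at harvest is not stated. For capacitation, the passage out of the naive state, cells were seeded on Geltrex (a basement membrane matrix) in the test medium, with a ROCK inhibitor until day 1. Of the 38 libraries, 30 belong to Ex1, which followed N2B27 and E8 over days 2, 3, 4, 6 and 8 and mTeSR over days 4, 6 and 8, next to naive cells kept on Geltrex or on a serum coating. The other 8 belong to Ex2, which set naive cells on Geltrex beside day 4 cultures in N2B27 alone, with XAV939 (XAV), or with XAV939 plus FGF2 and Activin A (FAX). Each of the 19 groups had 2 libraries. The labels do not say that these came from separate cultures. The paper calls them technical replicates in most legends of this time course and biological replicates in another. The p-values therefore measure the spread between libraries, which may be technical.

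YAP and TAZ (the product of *WWTR1*) are co-activators that enter the nucleus when cells spread and tense their actin fibres, and bind DNA there through TEAD factors. Angiomotins hold YAP in the cytoplasm, and tankyrases mark both angiomotins and the WNT pathway scaffold axin for destruction, so an inhibitor such as XAV939 stabilises these proteins. Actin also feeds back on genes through MRTF and SRF, which bind the CArG box of many muscle and contractile genes. Several genes named after heart or smooth muscle, such as *ACTC1* and *TAGLN*, are targets of these pathways in cells that are not muscle.

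Of the 10 genes, 7 had a promoter in the RefSeq set used here (GRCh38.p14), with 10 start sites between them, and *NPPB*, *TAGLN* and *MYL9* were not in it. The 250 bases before each start were searched on both strands for CATTCC, a core TEAD motif whose other strand reads GGAATG, and for the CArG box. Counted by start site, the TEAD motif lay before 4 of the 10 (1 each of *ANKRD1*, *THBS1*, *ACTC1* and *ACTA2*), against 11.9% of all 35116 promoters. The CArG box lay before 1 of the 10, the first of *ACTC1*, against 1.16% of all promoters. These are matches of letters, not measured sites. The 3 windows below are shown because they hold the matches of genes that the results turn on, 5′ to 3′ on the gene's strand with the matches in capitals. *ANKRD1* has 2 TEAD motifs, starting 220 and 128 bases before the start (chr10:90921088-90921337, minus strand). *THBS1* has 1, at 46 bases before the start (chr15:39580829-39581078, plus strand). *ACTC1* has a CArG box 109 bases before its first RefSeq start (chr15:34795590-34795799, minus strand, without the 40 bases that lie inside the annotated gene).
ANKRD1: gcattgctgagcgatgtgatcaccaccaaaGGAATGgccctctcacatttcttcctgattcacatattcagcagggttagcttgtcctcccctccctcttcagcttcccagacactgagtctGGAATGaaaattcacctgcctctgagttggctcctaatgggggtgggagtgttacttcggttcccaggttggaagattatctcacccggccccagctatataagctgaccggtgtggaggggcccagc
THBS1: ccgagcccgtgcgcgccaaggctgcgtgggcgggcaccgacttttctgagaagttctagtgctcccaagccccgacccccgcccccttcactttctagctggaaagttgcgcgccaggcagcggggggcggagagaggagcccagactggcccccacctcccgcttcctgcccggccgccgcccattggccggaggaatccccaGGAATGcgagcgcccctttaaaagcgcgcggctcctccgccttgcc
ACTC1: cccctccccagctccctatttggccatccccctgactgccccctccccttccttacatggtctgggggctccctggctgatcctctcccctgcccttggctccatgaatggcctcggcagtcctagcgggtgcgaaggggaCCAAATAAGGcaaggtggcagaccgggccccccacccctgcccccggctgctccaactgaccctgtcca

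Total counts per library ranged from 3038046 to 5612354 (median 4427277). Levels are CPM, counts scaled to a common library size with edgeR's TMM factors, given as mean ± SD (n = 2 unless stated). A group whose libraries all had at most 3 counts is said to be at the floor, which was 0.520 to 1.06 CPM, and a fold against such a group is a lower bound computed against its highest floor. Because 3′ tags lie near transcript ends, reads of near-identical genes can be confused. Of the 50-base stretches in the last 500 bases of the transcripts, 0.8% in *ACTC1* and 3.92% in *ACTA2* also occurred in another gene, and 28.9% in *TAGLN* did, all of them in 1 annotated gene without a symbol. In 6 of the other genes none did, and in *TPM1* 0.184%. Fewer cells expressing a gene and less RNA per cell cannot be told apart in these bulk samples. A gene was called changed at an adjusted p under 0.05 and an absolute log2 fold change above 1, with edgeR's quasi-likelihood test and Benjamini-Hochberg adjustment over all 16674 genes, and every adjusted p below is of that kind.

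By day 8 of capacitation in N2B27 all 10 genes were higher than in naive cells. At day 2, 5 of 10 were higher than in naive cells (all genes higher: 9.86%), at day 4 there were 9 (12.5%), and at day 8 all 10 (16.9%). Of the 6 added genes these were 4, 5 and 6. Against naive cells the same held for all 10 in E8 at day 8 (18.2%) and for 9 in mTeSR at day 8 (16.9%), 5 of the 6 added genes among them, where *ANXA3* stayed under the fold limit (log2 fold change 0.94). Over days 2 to 8 within N2B27 all 6 added genes also changed, by an F-test over the 5 days (all genes: 27.2%). So did the 4 seed genes, whose N2B27 levels were part of the choice. The day 2 count rested on 1 library. Without replicate 2 of N2B27 day 2 it was 3, as *ANXA1* and *TPM1* lost their calls, and *TPM1* (log2 fold change 1.01) also lost its call without either naive library of Ex2. Summed markers of other cell types moved over the same days. From the 4 naive libraries of Ex1 to N2B27 at day 8, fibroblast markers (8 genes) went from 4.59 to 7.63 CPM to 175 to 183, smooth muscle markers (7 genes) from 12.4 to 17.7 to 94.3 to 98.6, and streak and mesoderm markers (6 genes) from 11.3 to 21.8 to 235 to 311. Their part in the levels of the 10 genes was not tested.

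The order of appearance differed between genes. *TAGLN*, which encodes transgelin, an actin cross-linking protein of smooth muscle (chromosome 11, 117199370 to 117207464), was one of the genes already called at day 2. Over the 6 naive libraries its lowest, median and highest levels were 0.683, 1.01 and 1.77 CPM, and at day 2 in N2B27 it stood at 33 and 43.0 CPM. The log2 fold change was 4.94 (SE 0.32, adjusted p 3.94e-14). *MYL9*, the regulatory light chain of non-muscle and smooth muscle myosin (chromosome 20, 36541497 to 36551447), averaged 0.582 CPM over the naive libraries and reached 7.20 and 9.97 CPM at day 2, a log2 fold change of 3.80 (SE 0.34, adjusted p 9.82e-11). In both genes the day 2 libraries lay above all naive ones.

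*ACTC1*, the alpha actin of cardiac muscle (chromosome 15, 34790107 to 34795589), came later. It had 1 to 4 counts in each of the 6 naive libraries. In N2B27 it stood at 1.40 and 2.14 CPM at day 2, at 1.97 and 3.6 at day 3, and at 23.7 and 21.7 at day 4, an 8.15-fold step between the day 3 and day 4 means. It then reached 36.9 and 38.9 CPM at day 6 and 51.8 and 52.4 at day 8. Against naive cells the day 8 log2 fold change was 6.83 (SE 0.41). *NPPB*, which encodes the natriuretic peptide BNP and responds to stretch (chromosome 1, 11857464 to 11858945), was already up at day 3. It had at most 1 count in any naive or N2B27 day 2 library, then stood at 5.17 and 5.21 CPM at day 3, 19.8 and 17.4 at day 4, and 27.3 and 32.2 at day 8. This was at least 29.0-fold higher at day 8 than in naive cells.

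*ANKRD1*, a nuclear ankyrin repeat protein and a much used YAP/TEAD target (chromosome 10, 90912096 to 90921087), made its largest gain in CPM in N2B27 between days 6 and 8. It stood at 0.200 and 0 CPM at day 2, 2.46 and 2.00 at day 3, 3.81 and 3.05 at day 4, and 7.29 and 7.66 at day 6. At day 8 it was at 43.4 and 33.8 CPM, 5.16-fold above the day 6 mean and at least 37.7-fold above naive cells. No other of the 10 genes had a step of more than 1.92-fold between days 6 and 8 in N2B27. *THBS1*, which encodes the secreted matrix glycoprotein thrombospondin 1 (chromosome 15, 39581079 to 39599466), was near its day 8 level by day 4. It stood at 0.600 and 0.949 CPM at day 2, 7.38 and 5.01 at day 3, 13.2 and 8.96 at day 4, and 13.0 and 13.7 at day 8.

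The annexins are calcium-dependent membrane-binding proteins. *ANXA1* (chromosome 9, 73151865 to 73170393) was higher at each later day in N2B27 with no overlap of its libraries, from 4.20 and 5.93 CPM at day 2 to 80.0 and 99.0 at day 8, against a naive mean of 0.928 CPM. *ANXA3* (chromosome 4, 78551747 to 78610451) was present before capacitation, at 13.2 to 19 CPM in naive cells, and reached 46.9 and 50.8 CPM at day 8. *TPM1*, a tropomyosin that coats actin filaments (chromosome 15, 63042620 to 63071915), was likewise present in naive cells, at 96.4 CPM, and stood at 351 and 366 CPM at day 8. *ACTA2*, the smooth muscle alpha actin (chromosome 10, 88935074 to 88991339), stayed scarce throughout: no group mean exceeded 4.35 CPM, that of N2B27 day 8, and no 2 neighbouring groups in its order of levels were separated by their libraries.

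**Figure D1:**
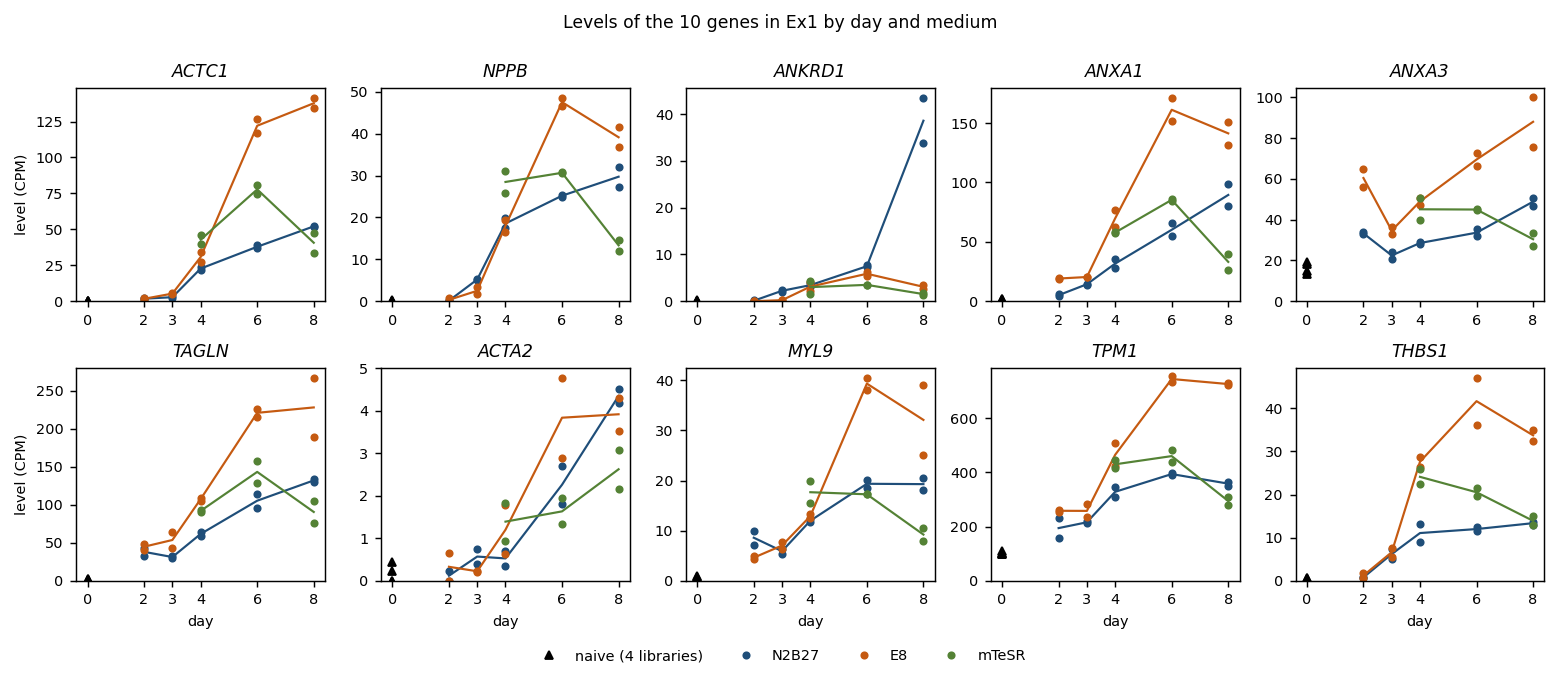
Levels in CPM (vertical axis, linear, from 0) of the 10 genes in Ex1 by day (horizontal axis), with 1 point for each library and lines through the means of N2B27, E8 and mTeSR; triangles at day 0 are the 4 naive libraries of Ex1. Most genes are highest in E8 at days 6 and 8 and lower in mTeSR at day 8 than at day 6, while *ANKRD1* reaches 38.6 CPM in N2B27 at day 8 and its means stay at or under 5.87 CPM in E8 and mTeSR.

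E8 is a defined medium with FGF2 and TGFβ, and mTeSR is a commercial medium for primed cells. Against N2B27 at the same day, most of the 10 genes were higher in E8 at day 6. At day 2, 1 of 10 genes was higher (all genes higher: 2.82%) and at day 3 none was, while 1 was lower (0.606%). At day 4, 2 were higher (1.36%), at day 6 there were 6 (2.31%), and at day 8 there were 3 higher (3.33%) and 1 lower (3.96%). Of the 6 added genes 1 was called at day 4, 4 at day 6 and 2 at day 8. *ACTC1* at day 6 stood at 117 and 127 CPM in E8 and at 36.9 and 38.9 in N2B27, a log2 fold change of 1.69 (SE 0.16), and at day 8 at 141 and 134 CPM against 51.8 and 52.4. *THBS1* was higher at day 4 (28.8 and 26.4 CPM against 13.2 and 8.96), at day 6 (log2 fold change 1.80, SE 0.21, adjusted p 2.34e-07) and at day 8 (32.4 and 35.1 CPM against 13.0 and 13.7). *ANXA1* was the only one of the 10 called at day 2, at 19.5 and 18.7 CPM in E8 against 4.20 and 5.93 in N2B27 (log2 fold change 1.92, SE 0.30, adjusted p 7.08e-05). Its day 4 call (log2 fold change 1.14) was lost without N2B27 replicate 2 or E8 replicate 1.

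The day 6 calls were *ACTC1*, *ANXA1*, *ANXA3*, *TAGLN*, *MYL9* and *THBS1*. Of these, 3 lay near the fold limit (log2 fold changes of 1.05 for *ANXA3*, 1.07 for *TAGLN* and 1.02 for *MYL9*), and the count was between 4 and 6 when any 1 library was left out. *ANKRD1* went the other way. At day 3 it had 1 count in each E8 library and 10 in each N2B27 library, at least 3.11-fold lower (adjusted p 0.0102), a call that was lost without N2B27 replicate 1 or either E8 replicate, and by DESeq2. At day 8 it stood at 2.62 and 3.53 CPM in E8 and at 43.4 and 33.8 in N2B27, a log2 fold change of -3.65 (SE 0.33). The E8 and N2B27 courses differed in shape, by a test of the interaction over the 5 days, for 2 of the 6 added genes, *MYL9* and *THBS1* (all genes: 6.83%), and for all 4 seed genes, whose N2B27 levels were part of the choice. All these comparisons share the N2B27 libraries of Ex1.

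In mTeSR all 10 genes stood below their E8 levels at days 6 and 8, but not at day 4. The median log2 differences at days 6 and 8 were -0.72 and -1.43, against 0 and -0.004 over all genes tested. The share of all genes below E8 by sign was not computed, and the mTeSR levels of the 4 seed genes were part of the choice. At day 4, 0 of 10 were called between mTeSR and E8 by edgeR (all genes: 0.084%), with 3 at an unadjusted p under 0.05 and 0 called by DESeq2. The libraries of the 2 media did not overlap for 6 genes. Of the 6 added genes *MYL9* was higher in mTeSR (22% of all genes were), and *TAGLN* and *THBS1* were lower (19.9%). Of the seed genes *ACTC1* and *NPPB* were higher and *ANXA1* was lower. *NPPB* stood at 25.9 and 31.1 CPM in mTeSR and at 19.4 and 16.6 in E8, and *ACTC1* at 39.5 and 46.1 against 34.5 and 27. At day 6, 2 were lower in mTeSR (all genes lower: 0.474%), *MYL9* and *THBS1*, and at day 8 there were 8 (2.79%), all but *ANKRD1* and *ACTA2*. Both day 6 calls and 5 of the 8 at day 8 were of added genes. The day 6 count was 1 without E8 replicate 2 or mTeSR replicate 2, as *THBS1* lost its call. *ANXA1* at day 8 stood at 39.6 and 26.6 CPM in mTeSR and at 132 and 151 in E8, a log2 fold change of -2.09 (SE 0.18). *MYL9* stood at 10.6 and 7.84 CPM against 25.1 and 39.1 (log2 fold change -1.79, SE 0.23, adjusted p 1.48e-06). *NPPB* stood at 14.7 and 12 CPM against 41.6 and 36.7 (log2 fold change -1.55, SE 0.22). *TPM1* stood at 309 and 279 CPM against 723 and 729 (log2 fold change -1.30, SE 0.12, adjusted p 2e-09). In all 4 genes the libraries of the 2 media did not overlap.

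Within mTeSR, 9 of 10 genes were lower at day 8 than at day 6 with no overlap of their libraries, 5 of the 6 added genes among them (23.7% of all genes). *ACTC1* went from 74.5 and 81.0 CPM to 47.8 and 33.6, *ANXA1* from 84.5 and 86.2 to 39.6 and 26.6, and *TPM1* from 481 and 439 to 309 and 279. *ACTA2* was the exception, at 1.33 and 1.94 CPM at day 6 and 2.17 and 3.08 at day 8. In E8 over the same days 5 were lower (23.3% of all genes), *NPPB*, *ANKRD1*, *ANXA1*, *TPM1* and *THBS1*, by 1.03 to 1.91 times between means, and 2 were higher (21.5%), *ACTC1* and *ANXA3*. In N2B27 4 of the 6 added genes were higher (22.4%), *ANXA3*, *TAGLN*, *ACTA2* and *THBS1*, and 1, *TPM1*, was lower (25.2%), while the 4 seed genes were higher. These steps were not tested beyond the overlap. In mTeSR the summed smooth muscle markers (7 genes) were at 99.8 to 102 CPM at day 6 and at 59.9 to 71.7 at day 8. The streak and mesoderm markers (6 genes) went the other way, from 121 to 133 CPM to 149 to 197. Their part in these steps was not tested.

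Set beside N2B27, the contrast that helped to choose the genes, mTeSR held 9 of 10 at a higher level at day 4, 7 at day 6 and 1 at day 8, with median log2 differences of 0.64, 0.35 and -0.71. These are counts by sign alone, and by sign alone 50.3%, 48.7% and 49.2% of all genes were higher at these days. At day 8 *ANKRD1* stood at 1.36 and 1.68 CPM in mTeSR against 43.4 and 33.8 in N2B27 (log2 difference -4.64), *ANXA1* at 39.6 and 26.6 against 80.0 and 99.0 (-1.43), and *NPPB* at 14.7 and 12 against 27.3 and 32.2 (-1.16). *THBS1*, at 14.9 and 12.9 CPM against 13.0 and 13.7, overlapped, and its direction turned under plain library totals.

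XAV939 in N2B27 went with lower levels of 9 of the 10 genes at day 4, the other contrast behind the choice. The median log2 difference of the 10 genes was -1.79, against 0.01 over all genes tested, and by sign alone 48.4% of all genes were lower. *ACTC1* stood at 57.3 and 71.6 CPM in N2B27 and at 8.85 and 9.16 in XAV, a log2 difference of -2.84 (SE 0.20), or 14% of the N2B27 mean. *NPPB* stood at 37.8 and 40.4 CPM against 8.65 and 6.37, or 19.2%. *ANXA1* stood at 86.0 and 83.7 CPM against 14.7 and 19.7, or 20.3%. These 3 seed genes were low in both XAV libraries and did not overlap with N2B27.

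*ANKRD1* had 7 and 14 counts in N2B27 and 1 in each XAV library, at least 4.27-fold lower. Among the genes added to the seeds, *TAGLN* was at 26.7% of its N2B27 mean (126 and 129 CPM against 32.0 and 36.2), *MYL9* at 31.3%, *THBS1* at 39.5%, *ANXA3* at 40.7% and *TPM1* at 48.5% (423 and 435 CPM against 204 and 212). *ACTA2* had 2 counts or fewer in every Ex2 library at day 4, so it gives no fold.

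With XAV939 most of the genes still stood above their naive levels. Against the 6 naive libraries, 7 of 10 were higher in XAV at day 4 (all genes higher: 10.5%) and 8 in FAX (10.3%), in each case with 4 of the 6 added genes. *ACTC1* at 9.01 CPM in XAV was above its naive mean of 0.488 (log2 fold change 4.30, SE 0.55), *TAGLN* at 34.1 above 1.18 (4.79, SE 0.33, adjusted p 5.98e-14), and *NPPB* was at least 7.33-fold higher. *ANXA3* was at 20.5 CPM in XAV and 15.8 in naive cells (log2 difference 0.38, SE 0.20, adjusted p 0.162). One of the FAX calls, *ANKRD1*, rests on 3 counts in each library, which is the floor, and carries no fold.

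**Figure D2:**
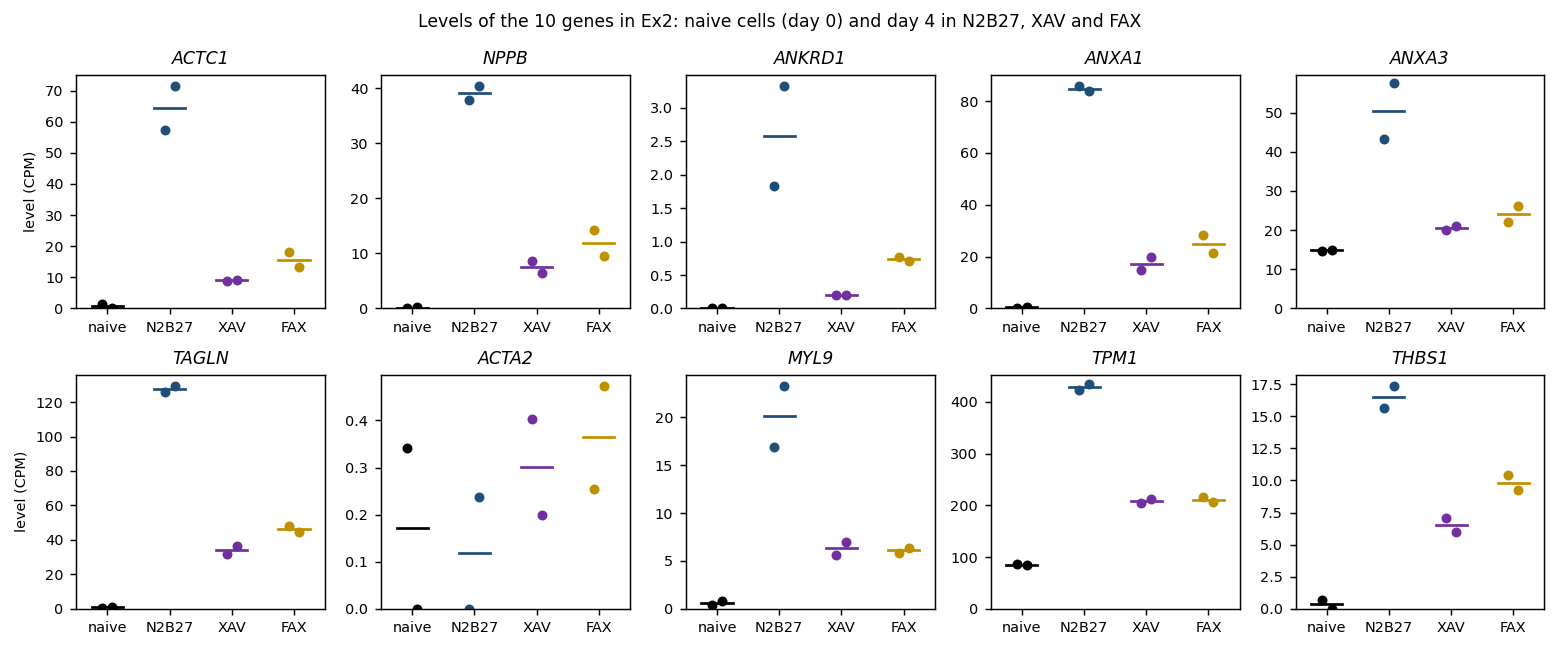
Levels in CPM (vertical axis, linear, from 0) of the 10 genes in Ex2, with 1 point for each of 2 libraries and a bar at the mean, in naive cells (day 0) and at day 4 in N2B27, XAV and FAX. For 9 genes both XAV and both FAX libraries lie below both N2B27 libraries, while *ACTA2* stays at or under 0.473 CPM in every library. The 4 seed genes among the 9 were chosen partly by these libraries, and the share of all genes with this pattern was not computed.

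FAX, a contrast that did not choose the seed genes but shares the N2B27 libraries with XAV, gave 4 of the 6 added genes lower than N2B27 at day 4 (0.276% of all genes). The added genes were also chosen with earlier results of these data known. With 3 seed genes, chosen partly by a high level in these N2B27 libraries, the count was 7. The genes were *ACTC1*, *NPPB*, *ANXA1*, *ANXA3*, *TAGLN*, *MYL9* and *TPM1*, and the count of 7 was 6 or 7 when any 1 library was left out. *ACTC1* stood at 18.1 and 13.3 CPM in FAX (log2 fold change -2.05, SE 0.19), *ANXA1* at 28.5 and 21.3 CPM (-1.77, SE 0.19) and *NPPB* at 14.3 and 9.46 CPM (-1.73, SE 0.22). *TAGLN* stood at 47.9 and 44.7 CPM (-1.46, SE 0.17, adjusted p 2.45e-06). *THBS1*, at 10.4 and 9.23 CPM, did not pass (-0.75, SE 0.24, adjusted p 0.178), nor did *ANKRD1*, with 3 counts in each library. *ANXA3* lost its call without N2B27 replicate 2 or FAX replicate 1, and *TPM1* without FAX replicate 2.

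None of the 10 genes passed the test between FAX and XAV. By edgeR 0 were called (all genes: 0.012%), and DESeq2 called 0. By edgeR 5 of the 10 had an unadjusted p under 0.05, a count that pools the added genes with the seed genes. Both FAX libraries lay above both XAV libraries for 3 of the 6 added genes, *ANXA3*, *TAGLN* and *THBS1* (20.6% of all genes), and below for 0. They also did for the 4 seed genes, chosen partly by low values in these XAV libraries, *ANKRD1* at the floor in both. The median log2 difference of the 10 genes was 0.48, against -0.01 over all genes tested. It includes the 4 seed genes, and *ANKRD1* and *ACTA2* had both groups at the floor. *ACTC1* stood at 18.1 and 13.3 CPM in FAX against 8.85 and 9.16 in XAV (log2 difference 0.79, SE 0.23), and *TAGLN* at 47.9 and 44.7 against 32.0 and 36.2 (0.44, SE 0.18, adjusted p 0.851). *TPM1* (211 against 208 CPM, 0.02, SE 0.12) and *MYL9* (6.12 against 6.30 CPM, -0.04, SE 0.29) overlapped, as did *ACTA2*.

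**Figure D3:**
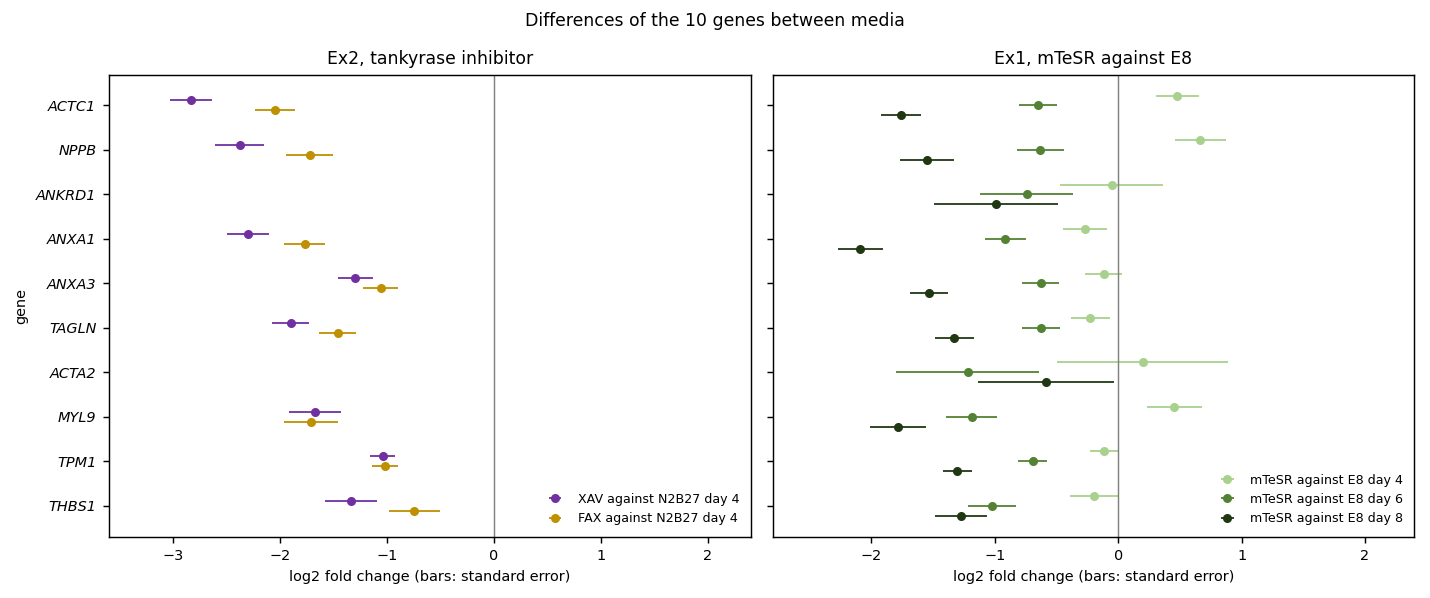
Log2 fold changes (horizontal axis) with standard errors as bars for the 10 genes (vertical axis), in Ex2 for XAV and FAX against N2B27 at day 4 (left) and in Ex1 for mTeSR against E8 at days 4, 6 and 8 (right). *ANKRD1* and *ACTA2* are left out of the left panel because a group is at the floor. On the right, all 10 genes lie below 0 at days 6 and 8, but not at day 4. The 4 seed genes were chosen partly by libraries shown in both panels.

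The N2B27 level against which XAV and FAX are read was itself not the same in both experiments. At day 4, 4 of 10 genes were higher in Ex2 than in Ex1 (all genes higher: 0.39%): *ACTC1* by 2.84 times between means (57.3 and 71.6 against 23.7 and 21.7 CPM, log2 fold change 1.51, SE 0.17), *ANXA1* by 2.68 times, *NPPB* by 2.11 times and *TAGLN* by 2.07 times (log2 fold change 1.05, SE 0.16, adjusted p 0.000178). The first 3 are seed genes, chosen partly by a high level in these same Ex2 libraries, so the count is not read against the share of all genes, and of the 6 added genes 1 was called. The count was 2 without Ex1 replicate 2, as *NPPB* and *TAGLN* lost their calls. Set beside the N2B27 libraries of Ex1, the XAV means were 39.7% for *ACTC1*, 40.5% for *NPPB*, 54.3% for *ANXA1* and 71.9% for *ANXA3*. *ANKRD1* went the other way, with an N2B27 mean in Ex2 that was 0.751 times that in Ex1, and with XAV at the floor. At day 4 in N2B27 the summed smooth muscle markers were 71.3 to 71.8 CPM in Ex1 and 139 to 153 in Ex2, trophectoderm markers 26.9 to 27 and 38 to 39.2, and streak and mesoderm markers 61.5 to 62.1 and 33.6 to 45.2, and their part in the difference was not tested. Experiment and any other difference between these cultures cannot be told apart.

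Naive cells on the 2 coatings gave no call. Between Geltrex and serum coating 0 of 10 genes were called by edgeR (all genes: 0.048%) and by DESeq2, and 1 had an unadjusted p under 0.05. That was *ANXA3*, at 14.6 and 13.2 CPM on Geltrex and 19 and 18.3 on serum coating (log2 difference -0.43, SE 0.19, adjusted p 0.288). In *ACTC1*, *NPPB*, *ANKRD1*, *ACTA2* and *THBS1* all 4 libraries had 3 or fewer counts, so a difference in them was not detectable at this depth.

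Several other contractile genes were also lower with XAV939. Of a list of 35, 32 were tested, and 6 were lower in XAV than in N2B27 (0.534% of all genes were) and 0 higher. The list, like the gene lists below, was chosen with earlier results of these data known. Its counts and p-values are therefore a description and no independent support, and the shares of all genes are given for scale only. By sign alone 30 of 32 were lower, and the median was -0.57. The 6 were *ACTA1*, the skeletal muscle actin (67.7 to 17.4 CPM, log2 fold change -1.96, adjusted p 1.25e-07), *CSRP1*, a LIM protein of actin bundles (-1.86), *CNN1*, calponin (114.5 to 38.5 CPM, -1.57), *ACTG2*, the enteric smooth muscle actin (-1.57), *CALD1*, caldesmon (788.5 to 334.6 CPM, -1.24, adjusted p 6.15e-09), and *FLNC*, filamin C (-1.10). The cytoplasmic actins *ACTB* (-0.29, adjusted p 0.608) and *ACTG1* (-0.13, adjusted p 0.86) did not pass. FAX gave 4 lower of 32 (all genes: 0.276%), *ACTG2*, *CNN1*, *ACTA1* and *CSRP1*, with a median of -0.34, and 2 without FAX replicate 2. In mTeSR against N2B27 the only call was *FHL2*, higher at days 4 and 6 (all genes higher: 0.81% and 1.22%), until day 8, when *ACTG2* and *CSRP1* were lower (all genes lower: 2.15%). The *FHL2* calls were lost without any 1 of the 4 libraries compared, and at day 8 the count was 1 without mTeSR replicate 2.

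Among YAP/TEAD targets outside the 10 genes, 1 was lower with XAV939. Of 21 listed, 19 were tested, and the 1 lower in XAV (0.534% of all genes were) was *MYOF*, a ferlin of the plasma membrane (8.33 to 1.70 CPM, log2 fold change -2.27, SE 0.40, adjusted p 0.000675), while 16 of 19 had a negative log2 difference and the median was -0.41. The count was 0 without XAV replicate 1 and 2 without N2B27 replicate 1 or XAV replicate 2. This list too was chosen with earlier results of these data known, so its counts and p-values are a description and no independent support. *CCN1* (CYR61 in the table), a secreted matrix protein, passed the p but not the fold limit (132 to 66.4 CPM, log2 fold change -0.99, SE 0.14, adjusted p 4.96e-05). *AMOTL2* stood at 132.7 and 78.1 CPM (-0.77, adjusted p 0.043) and *CCN2* (CTGF) at 62.3 and 48.5 CPM (-0.36, adjusted p 0.615). FAX gave 1 (all genes: 0.276%), again *MYOF* (-1.90, adjusted p 0.00966), and 0 without any 1 of the 4 libraries. In mTeSR against N2B27 there was 0 at day 4 by edgeR, where 5 had an unadjusted p under 0.05, and DESeq2 also gave 0. At day 6 *IGFBP3* was higher (all genes: 1.22%), and at day 8 *MYOF*, *FOXF2* and *RBMS3* were lower (2.15%). The day 6 call was lost without N2B27 replicate 2, and at day 8 the count was 0 without N2B27 replicate 2 or mTeSR replicate 1, and 1 without either of the other libraries.

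Transcripts of the regulators themselves gave no call under XAV939. Of 14 Hippo effectors and angiomotins 0 were called in XAV by edgeR, with 3 at an unadjusted p under 0.05, and of 11 tankyrase and WNT feedback genes 0 were called, with 0 at that p. Over all 16674 genes 95 were called in either direction. With so few calls, 0 in a list this short does not set its genes apart. These lists, and those of annexins and other relatives below, were also chosen with earlier results known. Their calls and p-values are a description. *YAP1* stood at 42.9 CPM in N2B27 and 40.7 in XAV, *WWTR1* at 36.8 and 41.6, *AMOT* at 5.27 and 5.2, *AMOTL1* at 9.79 and 12, and *TNKS*, a tankyrase, at 21.7 and 22.3. *AXIN2*, a WNT target, stood at 36.5 and 42.2 CPM (log2 difference 0.21, SE 0.20, adjusted p 0.845). *TEAD1*, named here after its values were seen, passed the p but not the fold limit (59.3 to 34.3 CPM, log2 fold change -0.79, adjusted p 0.00392). Protein levels, on which tankyrases act, were not measured here. *AMOT*, 1 of the 14, was lower in mTeSR than in N2B27 at day 4 (2.56 against 5.90 CPM, adjusted p 0.0334, all genes lower 0.768%) and at day 8 (2.63 against 10.2 CPM, adjusted p 0.000152, all genes lower 2.15%). The 7 other annexins tested gave 0 calls in XAV, with 1 at an unadjusted p under 0.05 and a median of -0.14. Of 4 other relatives tested, *THBS2*, a second thrombospondin, was higher in mTeSR than in N2B27 at days 4, 6 and 8 (at day 8 34.9 against 3.72 CPM, adjusted p 3.47e-08), where 0.81%, 1.22% and 1.65% of all genes were higher, and 0 were called in XAV, with 1 at an unadjusted p under 0.05.

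**Figure D4:**
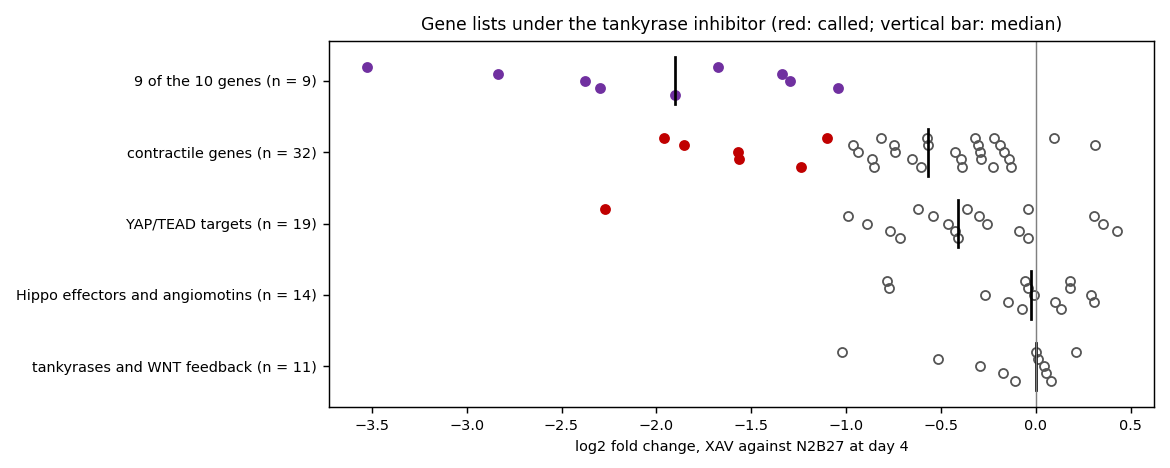
Log2 fold changes of XAV against N2B27 at day 4 (horizontal axis) for 9 of the 10 genes (*ACTA2*, at the floor, is left out) and for 4 gene lists (rows), with 1 point a gene, red where it was called and a vertical bar at the median. The 9 genes lie between -3.53 and -1.04, the value of *ANKRD1*, at the floor in XAV, being a fitted one and no bound. The contractile genes have a median of -0.57 and the Hippo effectors one of -0.02.

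Markers of other cell types were looked at because several of the 10 genes carry muscle names. The 5 markers of pluripotent cells had counts in every library. Of 14 cardiac muscle markers 7 passed the filter, and the sarcomere genes *MYH6*, *MYH7*, *TNNI1*, *MYL4* and *MYL3* and the peptide *NPPA*, the sister gene of *NPPB*, had at most 3 counts in any library, as had *TNNC1*. Others were present, with up to 41 counts of the troponin *TNNT2*, 67 of the calcium channel *RYR2*, 88 of *GATA4*, 30 of *TBX5*, 29 of *NKX2-5* and 11 of the myosin light chain *MYL7* in a library. The summed level of all 14 in Ex1 was 3.37 to 6.20 CPM in naive cells and, at day 8, between 310 and 344 in N2B27, between 286 and 292 in E8, and between 213 and 221 in mTeSR. In Ex2 it was 59.7 to 66.4 CPM in N2B27, 25 to 25.3 in XAV and 29.0 to 32.9 in FAX, most of it *TTN*, the giant sarcomere protein titin (48.9 CPM in N2B27 and 13.9 in XAV, adjusted p 2.64e-05). The 7 smooth muscle markers summed to 139 to 153 CPM in N2B27, 51.4 to 56.7 in XAV and 56.6 to 58.8 in FAX, with *MYH11*, the defining myosin, at 2.24 CPM or less in every library. Most of that sum was *CNN1* (114.5 CPM in N2B27 and 38.5 in XAV), which like *ACTG2*, *MYH11*, *LMOD1* and *DES* is also in the contractile list. The 8 fibroblast markers summed to 88.1 to 88.7 CPM in N2B27, 58.8 to 67.1 in XAV and 63.7 to 71.3 in FAX, most of it the collagen *COL1A2* (68.9 CPM in N2B27 and 50.7 in XAV, and 140.1 in N2B27 at day 8 of Ex1). The 4 naive markers summed to 511 to 541 CPM in N2B27, 589 to 629 in XAV and 588 in both FAX libraries, and the 5 amnion markers to between 4.99 and 9.12 CPM in all 6. The 5 trophectoderm markers summed to 38 to 39.2 CPM in N2B27, 15.5 to 22.7 in XAV and 25.1 to 27 in FAX, and the 6 streak and mesoderm markers to 33.6 to 45.2, 32.0 to 34.5 and 50.2 to 53.9. At day 8 the summed trophectoderm markers (5 genes) lay between 55.3 and 65.9 CPM in N2B27, between 14.2 and 16.7 in E8 and at most at 10.0 in mTeSR, and the streak and mesoderm markers (6 genes) between 235 and 311, between 36.7 and 39.1 and between 149 and 197, beside the *ANKRD1* levels above. The part of such cells in the levels of the 10 genes was not tested.

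Over the 19 group means the 10 genes followed each other to different degrees. Pearson's r of the log2 CPM means, given as a description since groups share media, days and an experiment, ran from 0.53 (*ANKRD1* with *ANXA3*) to 0.97 (*TAGLN* with *MYL9*). Of 9035 other genes, those most like the mean of the 4 seed genes were *FAM43A* (r = 0.97), *GCNT4*, *CREB5*, the receptor tyrosine kinase *AXL* and *AL035425.3* (all 0.96). *ACTA1* was among the 2 most like *TAGLN* (0.99), *ANXA1* (0.98), *MYL9* (0.97) and *TPM1* (0.97). For *ACTC1* the nearest were *GCNT4* and *CRIM1* (0.98 and 0.97), for *NPPB* *PID1* and *CNN1* (both 0.97), for *ANXA3* *RTN4* and *RSU1* (0.94 and 0.93), and for *THBS1* *RAI14* and *COL1A1* (both 0.97). *ANXA1*, *TAGLN*, *MYL9* and *TPM1* had *PLK2*, *DCLK1*, *COTL1* and *VCL* as the other nearest gene, and *ACTA2* had *MAST4* (0.95). *ANKRD1* had the least close neighbours, *RBMS2* (0.92) and *COLEC12* (0.91).

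Ordered by level, *ACTC1* stood highest in E8 at day 8 (137.7 ± 5.0 CPM), then in E8 at day 6, in mTeSR at day 6 and in N2B27 at day 4 of Ex2 (64.5 CPM), with 12 of its 18 neighbouring pairs of groups separated by their libraries. For the other genes between 6 and 9 of 18 pairs were separated, apart from *ACTA2* with 0. The highest group was an E8 group for 8 of the 10 genes, and N2B27 at day 8 for *ANKRD1* and *ACTA2*.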

How the data were processed

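RNA of 38 libraries was measured by QuantSeq, a 3′ tag method. Per the methods, the authors aligned reads to hg38 and quantified them with the nf-core RNA-seq workflow (STAR 2.7.10a, Salmon 1.9.0, FastQC 0.11.9). They deposited 1 table of whole-number read counts per gene, not normalized. The annotation release is not given in the sources used here. Levels count tags near transcript ends, so they were compared between samples and not between genes.

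Groups came from the labels. The Ex2 naive libraries carry a name that reads day 4 but a title and time point of day 0, which was used. Counts were fitted with edgeR 4.0.16 (R 4.3.3, limma 3.58.1), with its default filter on low counts (16674 genes kept, 99.6% of counts), TMM scaling and the quasi-likelihood test. Comparisons with naive cells pooled the naive libraries (6) and N2B27 day 4 (4 libraries), and all others used 1 model of 19 groups, so every group shares the estimate of spread. Calls needed a Benjamini-Hochberg adjusted p under 0.05 and an absolute log2 fold change above 1. Scripts were tested on simulated data. Gene positions are from GENCODE on GRCh38 and promoters from RefSeq. Standard errors come from the quasi-likelihood fit and cover the spread between libraries, and floors cover counting error only.

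The members and lists were chosen with earlier results of these data known. Named are the 10 genes; in each list, all called genes where there were 6 or fewer and otherwise the 3 with the largest rise and fall; the 5 genes most correlated with the seed genes and the 2 most correlated with each member, of which only the first is reported here for *ACTA2*; and *AMOT*, *AMOTL1*, *AMOTL2*, *YAP1*, *WWTR1*, *CCN1* and *CCN2*. Alternatives were RLE scaling, plain totals, another filter or none, a replicate block, DESeq2 1.42.0, the libraries of 1 experiment only, and leaving out each library.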

Additional observations from a re-analysis of the deposited data

Results flagged for a closer look

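In the 6 naive libraries, *ACTC1* was highest in 1 library of Ex2, at 1.37 CPM, apart from the others by Dixon's test. This was 1 of 16 groups tested, and chance flags about 1 in 20. The value rests on 4 counts.

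The E8 and N2B27 courses over days 2 to 8 differed by the interaction test of edgeR for 6 genes. The size given is the largest difference between days, on the log2 scale, in how far E8 stood from N2B27. It was 1.72 for *ACTC1*, 2.45 for *NPPB* and 3.52 for *ANKRD1*. It was 1.42 for *ANXA1*, 1.91 for *MYL9* (adjusted p 0.00525) and 1.69 for *THBS1* (adjusted p 0.0179). The first 4 are seed genes, whose levels in the N2B27 libraries were part of how they were chosen, so no p is given for them. Sums of other cell types' markers also differed between these courses. At day 6 the smooth muscle markers summed to 172 to 177 CPM in E8 and to 89.8 to 116 in N2B27. At day 8 the fibroblast markers summed to 112 to 113 CPM in E8 and to 175 to 183 in N2B27. Other day 8 sums stand in the report, and their part was not tested.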

How the results depend on the processing

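Of 415 alternative values of 35 counts and medians, 377 stayed within 1.5 times the reported count or within the spread of replicates. RLE scaling and no filter moved 0 of them. Plain library totals gave 2 genes called in E8 against N2B27 at day 2, 1 in mTeSR against E8 at day 6, and 0 contractile genes in mTeSR against N2B27 at day 6. DESeq2 gave 0 in E8 against N2B27 at day 3 and 1 YAP/TEAD target in mTeSR against N2B27 at day 8. A stricter filter and the libraries of Ex2 alone each gave 2 YAP/TEAD targets in XAV. The replicate numbers did not pair the libraries (correlations of deviations over 171 pairs of groups from -0.35 to 0.258, 7 over 0.1), and a fit with the replicate block moved 0 of 31 counts, with 7 genes lower in FAX as in the report and 5 higher at day 2 in N2B27.

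Leaving out 1 library gave 3 to 5 genes for N2B27 day 2 against naive, 0 to 2 for E8 against N2B27 at day 3 and 1 to 2 at day 4, 1 to 3 for mTeSR against E8 at day 6, and 2 to 5 for N2B27 of Ex2 against Ex1. For YAP/TEAD targets it gave 0 to 2 in XAV, 0 in FAX, and in mTeSR against N2B27 0 to 1 at day 6 and 0 to 1 at day 8. For contractile genes it gave 2 to 3 in FAX, and in mTeSR against N2B27 0 at day 4, 0 at day 6 and 1 to 2 at day 8. *ANKRD1* in mTeSR against N2B27 at day 4 (-0.18) was 0.35 and -1.05 without mTeSR replicate 1 and 2. *THBS1* at day 8 (0.06) was -0.0051 with plain totals and -0.056 and 0.16 without mTeSR replicate 1 and 2. Of 1259 values of single called genes, 29 lost the call, 25 of them by the fold limit. The cause was not tested.

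Over all genes, DESeq2 called 467 against 758 for E8 at day 2, 144 against 280 at day 3 and 256 against 415 at day 4, 122 against 184 for mTeSR against E8 at day 6, 162 against 263 and 410 against 634 for mTeSR against N2B27 at days 4 and 8, 98 against 168 for N2B27 of Ex2 against Ex1, and 1 against 2 for FAX against XAV. With no filter there were 58 against 14 for mTeSR against E8 at day 4, 88 against 56 for FAX against N2B27, 23 against 2 for FAX against XAV and 106 against 8 for coating. With 1 experiment these were 7, 98, 10 and 0. Plain totals gave 9 for mTeSR against E8 at day 4. They also moved the share called higher from 62.1% to 43.5% (859 calls) for E8 at day 2, from 38.7% to 27.4% (190 calls) for N2B27 of Ex2 and from 50% to 33.3% (9 calls) for coating, and the median of all genes for E8 at day 2 by -0.12. Genes with 3 or fewer counts per library limit what *ACTA2*, *ANKRD1* and *NPPB* can show.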
